A study of Rattus norvegicus with 12 samples.

Results

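Stretch-responsive genes of the ankyrin repeat and Xin repeat families, with partners that share their places in the heart muscle cell, were described in the left ventricle of rats after social defeat. The 9 genes were taken by symbol from the 32735 rows of the deposited table: Ankrd1, Ankrd23, Xirp1, Xirp2, Nrap, Fhl1, Fhl2, Rcan1 and Enah. Each had 1 row, and all 9 were among the 7511 genes that passed the filter on low values. The tested rats (RSD, n = 6) were adult wild-type Groningen rats that went through social defeat, staged as a resident-intruder encounter, on 8 days in a row. The unhandled rats (CTR, n = 6) were adults of the same strain. Libraries were made from punches of the left ventricle with a kit that reads messenger RNA near its polyadenylated 3' end. Libraries are named by group and number.

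Ankrd1 and Ankrd23 encode ankyrin repeat proteins that sit on the elastic part of the giant protein titin and also enter the nucleus. Xirp1 and Xirp2 encode proteins with actin-binding Xin repeats at the intercalated disc, the junction through which heart muscle cells pull on each other. Transcripts of several of these genes, Ankrd1 above all, are known to rise in heart muscle that is stretched or overloaded, so they are often read as a record of mechanical load. The comparison here asks whether they differ between hearts of defeated and unhandled rats.

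Libraries held 2062798 to 3731118 reads, with the fewest in RSD 33 and the most in RSD 34. All 12 cardiomyocyte markers on the list used here were detected, and their summed level was 57047 ± 2831 normalised CPM in RSD and 56656 ± 2699 in CTR (SD, n = 6 each; exact permutation p = 0.816). Normalised CPM is the deposited CPM (reads scaled to the library's total) divided by the library's TMM factor. Markers of other muscle were present at lower sums. Of 8 listed atrial markers, 1 (Bmp10) had 0 reads in all 12 libraries, and of the 8 skeletal muscle markers with a row, 3 did (Actn3, Myf6 and Atp2a1). The other skeletal muscle markers had few reads, Tnnt3 with 62 over the 6 RSD libraries and 39 over the 6 CTR libraries. Mybpc2 had 46 in RSD and 37 in CTR, Myh4 10 and 14, Mylpf 6 and 1, and Tnni2 4 and 1. The skeletal muscle sum ran from 6.09 to 11.9 normalised CPM in RSD and from 1.82 to 8.52 in CTR. RSD 40 is labelled female although the study describes males. It held Y-linked transcripts within the range of the other 11 libraries (Kdm5d at 10.73 CPM, against 3.39 to 12.58 CPM). In bulk tissue, fewer cells of a type and less RNA per cell cannot be told apart.

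None of the 9 genes passed adjusted p 0.05 in limma over all genes tested, where 2 genes (0.0266%) did. Adjusted p ran from 0.485 for Xirp2 to 0.995 for Ankrd1. At an unadjusted p under 0.05 there was 1 of the 9, Xirp2, while 8.36% of all genes tested reached that level (3.89% higher in RSD, 4.47% lower). edgeR and DESeq2 on recovered reads also called 0 of the 9. No member had RSD and CTR libraries that did not overlap, a pattern seen in 0.293% of genes tested. Fold changes are RSD over CTR on the log2(CPM + 1) scale, and the log2 value was above 0 for 5 members and below 0 for 4, with a median of 0.03 beside 0.00 for all genes. The 95% interval held 0 for 8 of the 9, and for all 9 it lay within a 2-fold change in either direction.

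**Figure D1:**
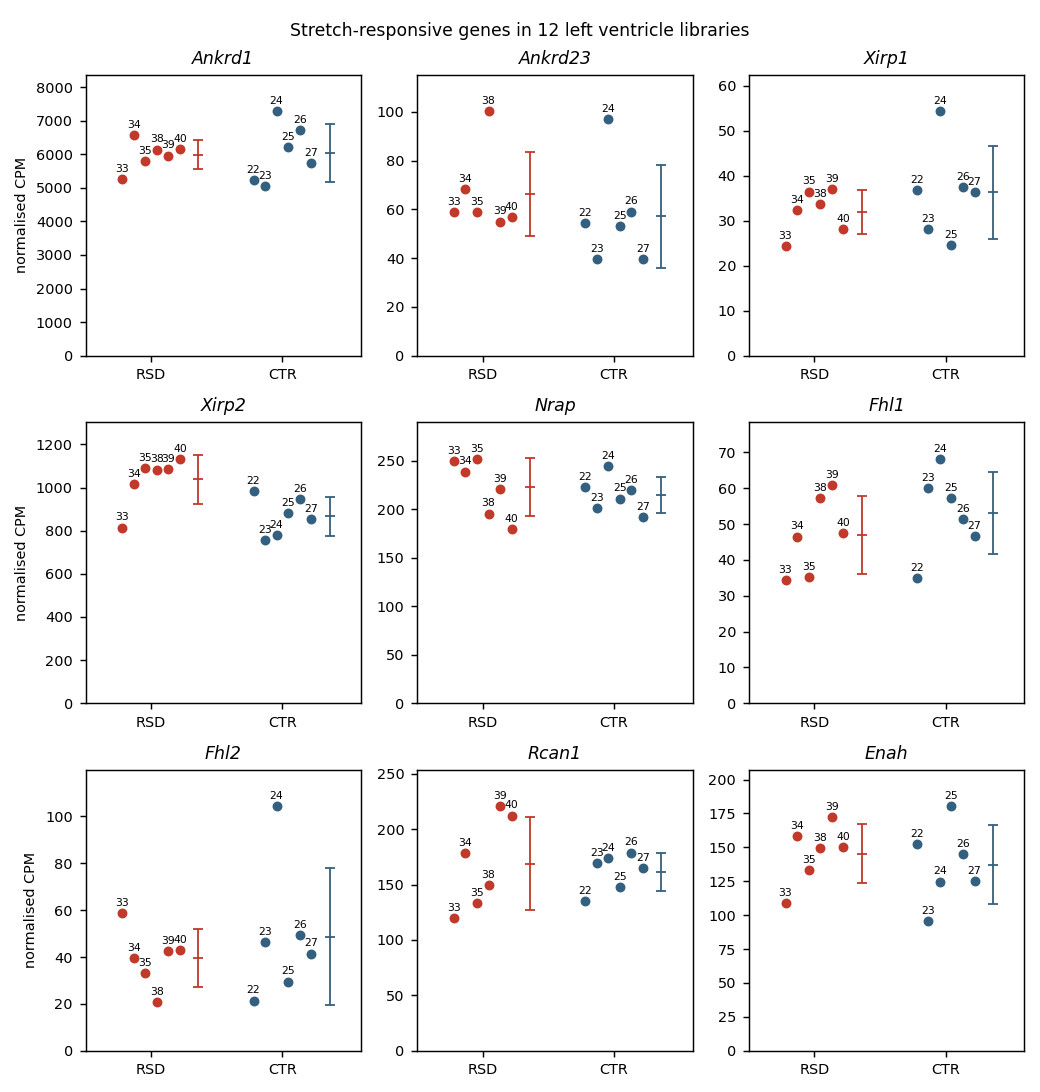
Normalised CPM (vertical axis, from 0) of each gene in the 6 RSD libraries (red, left) and the 6 CTR libraries (blue, right), with library numbers; the bar beside each group is the mean ± SD. The groups overlap in every panel, 5 of 6 RSD libraries lie above the highest CTR library for Xirp2, and CTR 24 stands far above the other controls for Ankrd23 and Fhl2.

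Ankrd1 encodes cardiac ankyrin repeat protein, a titin-bound protein and transcriptional cofactor. It measured 5263 normalised CPM in the lowest RSD library, 6047 at the median and 6560 in the highest, against 5054, 5976 and 7280 normalised CPM in CTR. The RSD range lay wholly inside the CTR range, with 2 control libraries below it and 2 above it. The mean was 5979 ± 433 normalised CPM in RSD and 6038 ± 866 in CTR (SD, n = 6 each), and the log2 fold change was -0.00 (95% interval -0.22 to 0.21, limma adjusted p = 0.995). As a ratio, the interval ran from 0.858 to 1.16. With 10387 to 23716 reads per library, Ankrd1 is the member whose value is least limited by counting.

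Ankrd23, a relative of Ankrd1 that also binds titin, had 55.0 normalised CPM in the lowest RSD library, 58.9 at the median and 100.3 in the highest, against 39.7, 53.9 and 97.0 in CTR. All 6 RSD libraries lay above the CTR median, and 4 control libraries lay below the lowest RSD library, yet the highest library of each group reached nearly the same level. Those were RSD 38 and CTR 24. The log2 fold change was 0.25 (95% interval -0.11 to 0.60, limma adjusted p = 0.734), 0.12 without RSD 38 and 0.41 without CTR 24. With a covariate for the fraction of reads in the top mitochondrial row, it was 0.52 (limma unadjusted p = 0.0114, adjusted p = 0.998). That row took 23.2% ± 2.32 of the reads in RSD and 19.9% ± 2.80 in CTR (SD, n = 6 each; exact permutation p = 0.0541). Its part in the result was not tested further.

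A further ankyrin relative, Ankrd2, best known from skeletal muscle, had 0 reads in the 6 RSD libraries and 3 in the 6 CTR libraries, and was not tested. Within a library, the log2 ratio of Ankrd1 to Ankrd23 averaged 6.5 ± 0.30 in RSD and 6.75 ± 0.32 in CTR (SD, n = 6 each). The difference of -0.25 did not pass (exact permutation p = 0.206, adjusted p = 0.308 over 3 ratios).

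Xirp2 came nearest to a difference. It encodes the larger of the Xin proteins of heart muscle, which binds actin filaments and is placed at the intercalated disc. It measured 815 normalised CPM in the lowest RSD library, 1085 at the median and 1134 in the highest, against 756, 868 and 983 normalised CPM in CTR. Of the RSD libraries 5 lay above the highest control, CTR 22, and the remaining one, RSD 33, lay below 4 of the 6 controls. The mean was 1037 ± 115 normalised CPM in RSD and 867 ± 89.6 in CTR (SD, n = 6 each). The log2 fold change was 0.26 (SE 0.10, 95% interval 0.06 to 0.46, a ratio between 1.04 and 1.37), with limma unadjusted p = 0.0134 and adjusted p = 0.485. It ranked 206 by p among the 7511 genes. RSD 40, with the disputed sex label, was the highest RSD library, and the log2 fold change without it was 0.23.

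Leaving out any 1 library kept the log2 fold change of Xirp2 between 0.22 and 0.32, and its adjusted p did not reach 0.05 in those 12 fits. It did when CTR 22 and RSD 33 were left out together (log2 fold change 0.36, limma adjusted p = 0.0491). That choice removes the highest control and the lowest RSD library for this gene, so it widens the gap and is no independent support. On the CPM as deposited, without scaling factors, the log2 fold change was 0.22 and the unadjusted p was 0.0665.

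Xirp1, the shorter Xin gene, had 24.3 normalised CPM in the lowest RSD library, 33.0 at the median and 37.0 in the highest, against 24.7, 36.6 and 54.4 in CTR. The groups overlapped over nearly the whole RSD range, and 2 controls lay above it. Its log2 fold change was -0.15 (95% interval -0.49 to 0.19, limma adjusted p = 0.846) and -0.03 without CTR 24, the highest control. Only 48 to 149 reads per library stood behind these values. The log2 ratio of Xirp1 to Xirp2 within a library was -4.98 ± 0.16 in RSD and -4.58 ± 0.42 in CTR (SD, n = 6 each), a difference of -0.40. The exact permutation p was 0.0281, and 0.0844 adjusted over the 3 ratios, so the ratio did not pass. It passed in 1 of the 12 tests that left out a library (without CTR 25, difference -0.51, exact permutation adjusted p = 0.013). Without CTR 24 the difference was -0.25.

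The bases just before the start of both Xin genes are shown because each holds 1 MEF2 site, the sequence bound by the muscle transcription factors of that family. These are RefSeq windows on build GRCr8, 250 bases each, written 5' to 3' along the gene's strand, with motif matches in capitals. For Xirp1 the window is chr8:128635012-128635261 on the minus strand, and for Xirp2 chr3:72533936-72534185 on the plus strand.
Xirp1: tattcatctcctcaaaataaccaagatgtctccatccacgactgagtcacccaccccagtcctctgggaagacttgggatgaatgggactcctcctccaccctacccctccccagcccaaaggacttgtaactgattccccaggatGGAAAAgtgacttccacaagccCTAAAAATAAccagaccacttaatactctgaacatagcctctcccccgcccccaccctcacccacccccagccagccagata
Xirp2: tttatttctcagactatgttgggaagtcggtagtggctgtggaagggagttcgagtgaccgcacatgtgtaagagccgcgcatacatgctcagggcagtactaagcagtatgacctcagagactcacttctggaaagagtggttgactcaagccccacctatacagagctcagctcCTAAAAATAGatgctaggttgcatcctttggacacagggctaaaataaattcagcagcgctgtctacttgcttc
The MEF2 match is CTAAAAATAA in Xirp1, its first base 82 bases before the start, and CTAAAAATAG in Xirp2, 74 bases before it. Of all 33469 promoter windows of this length, 2.96% hold a MEF2 match on either strand. The other capitals in Xirp1 are GGAAAA, the core bound by NFAT factors, which 21.6% of windows hold. RefSeq gives Xirp1 another start 8 bases away, whose window overlaps this one, and one more start whose window holds neither motif. Such matches describe letters and are not evidence of binding. Of the genes that encode MEF2 factors, the log2 fold change of Mef2a was 0.14 (95% interval -0.07 to 0.34), that of Mef2c 0.04 (-0.16 to 0.25) and that of Mef2d 0.08 (-0.59 to 0.74).

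Nrap encodes nebulin-related anchoring protein, which links actin to the cell junction and takes part in building new myofibrils. It measured 179.8 normalised CPM in the lowest RSD library, 229.7 at the median and 251.9 in the highest, against 191.3, 215.3 and 244.4 in CTR. RSD libraries stood on both sides of the control range, with 2 above it and 1 below it. The log2 fold change was 0.04 (95% interval -0.17 to 0.25, limma adjusted p = 0.933).

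Enah encodes Mena, which promotes the growth of actin filaments and lies at the intercalated disc in heart. It had 108.9 normalised CPM in the lowest RSD library, 149.8 at the median and 172.5 in the highest, against 95.5, 135.1 and 180.3 in CTR. All RSD libraries fell within the control range. The log2 fold change was 0.10 (95% interval -0.17 to 0.36, limma adjusted p = 0.881). Its relatives Vasp and Evl had log2 fold changes of 0.03 (95% interval -0.40 to 0.45) and -0.36 (-0.835 to 0.11), and neither passed.

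Fhl1 and Fhl2 encode proteins made of LIM domains. In mouse heart Fhl1 belongs to a titin-bound complex that responds to load, and Fhl2 is known to bind calcineurin and to restrain it. Fhl1 measured 34.5 normalised CPM in the lowest RSD library, 46.9 at the median and 60.8 in the highest, against 35.0, 54.4 and 68.2 in CTR. The groups overlapped almost throughout, with 1 control (CTR 24) above all RSD libraries and 1 RSD library (RSD 33) below all controls. Its log2 fold change was -0.18 (95% interval -0.50 to 0.15, limma adjusted p = 0.798). It had the opposite sign, 0.11, with the mitochondrial row as a covariate.

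Fhl2 had 20.7 normalised CPM in the lowest RSD library, 41.0 at the median and 58.8 in the highest, against 21.4, 43.9 and 104.3 in CTR. A single control, CTR 24, stood far above all other libraries, and the remaining 11 overlapped. The log2 fold change of -0.18 (95% interval -0.69 to 0.33, limma adjusted p = 0.880) became 0.07 without CTR 24. It was -0.01 without RSD 38 and -0.38 without CTR 22. Without CTR 22 and RSD 33 together it was -0.50 (limma unadjusted p = 0.0270, adjusted p = 0.330). That choice removes the lowest control and the highest RSD library for Fhl2, so it widens the gap. Fhl3, a further LIM gene of the family, was at 0.29 on the log2 scale of fold change (95% interval -0.07 to 0.66), and Fhl5 had 0 reads in all 12 libraries. The log2 ratio of Fhl1 to Fhl2 was 0.27 ± 0.71 in RSD and 0.27 ± 0.54 in CTR (SD, n = 6 each; exact permutation p = 0.987).

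Of the 4 windows before starts of the LIM genes, the 3 that hold a CArG box are shown. A CArG box is the site bound by serum response factor. The windows are chrX:139638246-139638495 on the plus strand for Fhl1, and chr9:52954541-52954790 and chr9:52923327-52923576 on the minus strand for the starts of Fhl2, all RefSeq windows on GRCr8 with matches in capitals.
Fhl1: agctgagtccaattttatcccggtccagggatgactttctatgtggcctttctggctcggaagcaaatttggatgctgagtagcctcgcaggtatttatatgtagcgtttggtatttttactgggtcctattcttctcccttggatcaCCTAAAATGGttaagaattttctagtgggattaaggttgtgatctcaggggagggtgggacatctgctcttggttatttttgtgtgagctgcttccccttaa
Fhl2 first start: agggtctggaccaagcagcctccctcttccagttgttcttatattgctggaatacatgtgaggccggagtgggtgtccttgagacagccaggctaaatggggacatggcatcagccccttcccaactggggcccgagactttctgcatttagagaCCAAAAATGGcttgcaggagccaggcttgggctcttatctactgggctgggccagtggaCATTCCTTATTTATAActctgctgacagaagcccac
Fhl2 second start: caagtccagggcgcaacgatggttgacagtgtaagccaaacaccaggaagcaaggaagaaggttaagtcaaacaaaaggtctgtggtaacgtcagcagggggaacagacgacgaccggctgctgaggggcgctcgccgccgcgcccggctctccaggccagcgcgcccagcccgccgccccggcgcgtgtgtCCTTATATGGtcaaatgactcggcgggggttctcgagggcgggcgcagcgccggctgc
The CArG matches are CCTAAAATGG in Fhl1, CCAAAAATGG at the first Fhl2 start and CCTTATATGG at the second, while 1.497% of all windows hold such a box. RefSeq gives Fhl1 another start, chrX:139645222-139645471 on the plus strand, whose window holds none of the motifs searched. The first Fhl2 window also holds CATTCC, the core bound by TEAD factors (12.1% of windows, either strand), directly followed by a MEF2 match. Srf, which encodes serum response factor, measured 19.7 ± 5.87 normalised CPM in RSD and 29.5 ± 8.14 in CTR (SD, n = 6 each). Its log2 fold change was -0.56 (95% interval -0.98 to -0.15, limma adjusted p = 0.458), so it did not pass. RefSeq windows were matched for 7 of the 9 genes, 12 windows in all; the others are Ankrd1 and Nrap. Ankrd23 has CATTCC and GGAAAA (as TTTTCC), Rcan1 has GGAAAA, and Enah has none of the motifs searched. TATAAA, the core of the TATA box, is held on either strand by Fhl1, Fhl2 and Rcan1 (12.9% of windows), and in the first Fhl2 window it overlaps the MEF2 match; it is not in capitals of its own.

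Rcan1 encodes a regulator that binds calcineurin, the calcium-activated phosphatase that sends NFAT factors to the nucleus, and its transcript is itself a known NFAT target. It measured 120.1 normalised CPM in the lowest RSD library, 163.9 at the median and 220.7 in the highest, against 134.8, 167.4 and 178.8 in CTR. RSD libraries lay on both sides of the controls, with 2 above the highest (RSD 39 and RSD 40) and 2 below the lowest (RSD 33 and RSD 35). The mean was 169.0 ± 41.7 normalised CPM in RSD and 161.6 ± 17.0 in CTR (SD, n = 6 each). The log2 fold change was 0.03 (95% interval -0.23 to 0.30, limma adjusted p = 0.965), and its sign turned on the CPM as deposited (-0.01). A 3' end read does not tell which of the Rcan1 start sites a transcript came from.

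**Figure D2:**
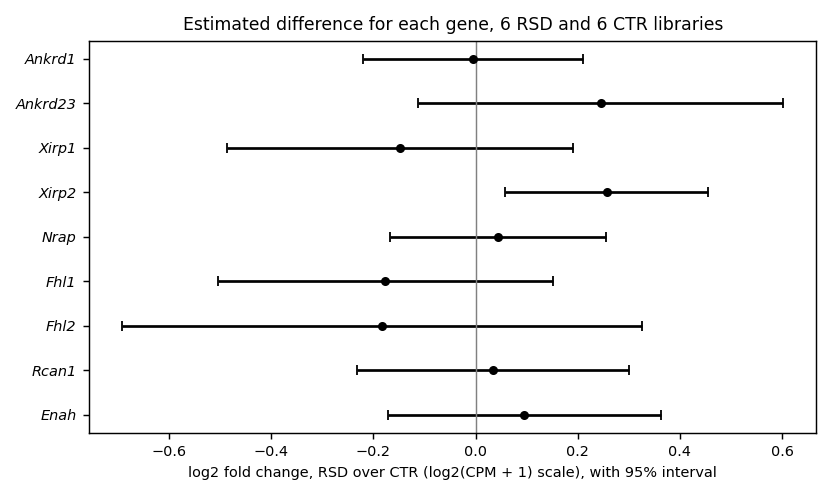
Log2 fold change of each gene (horizontal axis, RSD over CTR, log2(CPM + 1) scale), with points for the limma estimate over 12 libraries and bars for the 95% interval. Xirp2 has the only interval above 0 (0.06 to 0.46), and Fhl2 has the widest (-0.69 to 0.33).

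The members differed in how much they varied between rats of 1 group. The coefficient of variation (SD divided by mean) of Fhl2 was 31.7% in RSD and 59.9% in CTR, where counting error alone would give 9.53% and 8.36%. Ankrd23 varied by 26.0% in RSD and 36.9% in CTR, against 7.27% and 7.62% from counting. Xirp1 varied by 15.4% in RSD and 28.4% in CTR, against 10.5% and 9.59% from counting, so depth made up a larger part of its spread in RSD. Ankrd1 had 7.25% in RSD and 14.3% in CTR, with under 1% from counting. The spread was larger in RSD for 4 members (Xirp2, Nrap, Fhl1 and Rcan1) and larger in CTR for 5. Rcan1 showed the widest contrast of the 4, at 24.7% in RSD and 10.5% in CTR. These differences in spread were not tested.

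**Figure D3:**
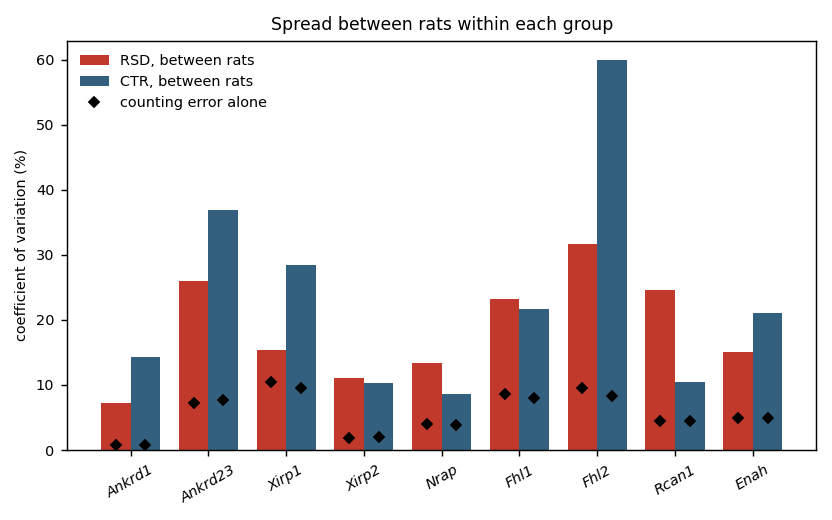
Coefficient of variation between the 6 rats of each group, in percent (vertical axis, from 0), for RSD (red, left bar) and CTR (blue, right bar); black diamonds mark the value that counting error alone would give. Fhl2 has the highest bars (31.7% in RSD, 59.9% in CTR), and every bar stands above its diamond.

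Extremes often fell in the same libraries, but how often each library is an extreme over all genes was not counted. RSD 33 was the lowest RSD library for 6 of the 9 members (Ankrd1, Xirp1, Xirp2, Fhl1, Rcan1 and Enah) and the highest for Fhl2. On the CPM as deposited it was the lowest for 5 and the highest for Nrap and Fhl2. It is also the library with the fewest reads. CTR 24 was the highest control for 6 members (Ankrd1, Ankrd23, Xirp1, Nrap, Fhl1 and Fhl2). This count depends on scaling: on the CPM as deposited, CTR 24 was the highest control for 3 of them (Ankrd23, Xirp1 and Fhl2), and its TMM factor of 0.921 was the lowest among controls. RSD 38, with the highest factor of 1.12, was the top RSD library for 6 members as deposited and for 1 after scaling. RSD 39 was the top RSD library for 1 member as deposited and for 4 after scaling.

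After group means were removed, 28 of the 36 pairs of members had a positive Pearson r over the 12 libraries, with a median r of 0.27. The strongest was Xirp2 with Enah (r = 0.74, permutation p = 0.0108; Spearman rho 0.53, p = 0.0983), where r was 0.33 without CTR 23 and RSD 33. Fhl1 with Rcan1 followed (r = 0.67, permutation p = 0.0252; rho 0.59, p = 0.0697; r = 0.46 without CTR 22 and RSD 33), and so did the ankyrin genes Ankrd1 and Ankrd23 (r = 0.68, permutation p = 0.0289; rho 0.66, p = 0.0542). The ankyrin pair had r = 0.33 without CTR 23 and CTR 24. Xirp2 and Fhl2 had a negative coefficient (r = -0.61, permutation p = 0.0417; rho -0.38, p = 0.255; r = -0.65 without CTR 23 and RSD 33). No pair passed adjustment over the 36 (smallest adjusted p = 0.347 for r and 0.731 for rho, permutation within groups). All pairs share libraries, and values scaled by 1 factor per library can move together. The part of this in the coefficients was not tested.

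**Figure D4:**
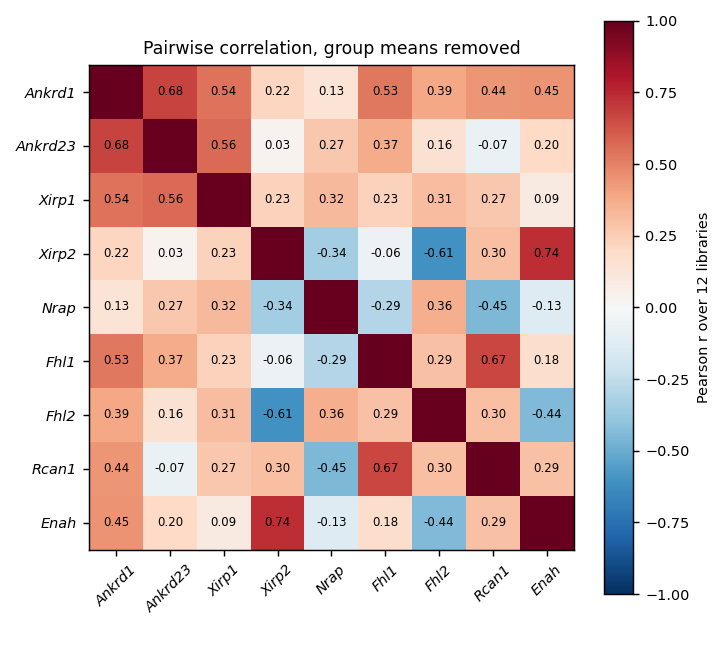
Pearson r between each pair of genes over 12 libraries on the log2(normalised CPM + 1) scale, group means removed; colour runs from -1 (blue) to 1 (red). Xirp2 with Enah reaches 0.74 and Xirp2 with Fhl2 has -0.61.

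Genes with the most similar pattern were searched among 2082 other genes whose log2 values averaged 5 or more, over 12 libraries with group means removed. For Ankrd1 these were Cd74 (r = 0.94), Rpl29 (0.87) and LOC100912427 (0.87). Xirp2 was most like Tmx4 (0.95), Cisd1 (0.92) and Sars (0.89), and Nrap most like Myl2 (0.91), Nfia (0.90) and Psmd1 (0.89). Ankrd23 had Actr1b (0.83) and Myh7 (0.78) among its nearest, and Xirp1 had Atp5a1 (0.77), Eef2 (0.76) and Vars (0.76). For Fhl1 they were Ccnd3 (0.88), Cox8a (0.86) and Nop10 (0.85), and for Fhl2 Akr1cl (0.92), Shfm1 (0.92) and Sdcbp (0.91). Rcan1 was nearest to Rhoa (0.92), Mrps14 (0.91) and Glrx3 (0.88), and Enah to Kif5b (0.87), AABR07021220.1 (0.83) and Brd7 (0.82). Each is the top of many candidates, so the values describe these libraries only.

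Around the members, 71 gene rows of 6 lists were tested and 0 passed over all genes by limma, edgeR or DESeq2. At a limma unadjusted p under 0.05, 3 of the 71 were higher and 3 lower, beside 3.89% and 4.47% of all genes tested. That is near the share over all genes. The median log2 fold change of the 71 was 0.01, beside 0.00 for all genes. The 6 tested family relatives had a median of 0.02, and 0 had an unadjusted p under 0.05. Among 15 Z-disc and titin partners the median was 0.02. Mypn, which encodes myopalladin, a binding partner of Ankrd1 at the sarcomere, measured 32.8 ± 9.18 normalised CPM in RSD and 45.02 ± 9.17 in CTR (SD, n = 6 each; log2 fold change -0.47, limma adjusted p = 0.475). Pdlim3 and Pdlim5, which encode LIM proteins of the Z-disc, had log2 fold changes of 0.35 and 0.44 (limma adjusted p = 0.497 for both). Among 16 genes for intercalated disc adhesion, where the Xin proteins sit, the median was 0.01 and 0 had an unadjusted p under 0.05. The smallest p values there belonged to Ctnna1 (-0.37), Ctnnd1 (0.48) and Dsg2 (-0.20).

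In the calcineurin pathway, which Rcan1 and Fhl2 act on, 16 gene rows had a median log2 fold change of 0.03. Calm2 is among them more than once. Ppp3cb, a catalytic subunit of calcineurin, measured 7.36 ± 2.26 normalised CPM in RSD and 3.41 ± 1.19 in CTR (SD, n = 6 each), a log2 difference of 0.92 (95% interval 0.36 to 1.49, limma adjusted p = 0.362) resting on 5 to 32 reads per library. Ppp3ca, another catalytic subunit with 144 to 261 reads per library, had 0.11 (95% interval -0.13 to 0.35). Ppp3r1, the regulatory subunit, had -0.27 (95% interval -0.57 to 0.03, limma adjusted p = 0.655), and Nfatc1, an NFAT factor, had 0.46 (-0.06 to 0.98). Rcan2, a relative of Rcan1, had -0.20 (95% interval -0.46 to 0.05). Among 12 effectors of serum response factor and of Hippo signalling, the median was -0.12, with Srf as above. Acta2, a smooth muscle actin gene, had -0.44 and Myocd, a cofactor of serum response factor, had 0.39. Tead1, whose protein binds the CATTCC core, had -0.25 (95% interval -0.67 to 0.16).

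Among 13 other stretch and hypertrophy genes the median was -0.07. The ventricular load marker Nppb had -0.54 (limma adjusted p = 0.433, 95% interval from -0.90 to -0.17). On the same list, Nppa had 0.20 (95% interval -0.39 to 0.78) and Myh7 had -0.14 (-0.41 to 0.14). Tgfb2, which encodes a growth factor, had 0.36, and Lmcd1, a LIM gene, had 0.23. Csrp3, which encodes a Z-disc LIM protein, had 0.02 (95% interval -0.18 to 0.22), and the skeletal actin gene Acta1 had 0.15 (-0.14 to 0.45). Over all genes, Dbp, a clock output factor (log2 fold change -0.89, limma adjusted p = 0.0147), and Rps23 (-1.10, limma adjusted p = 0.0416) were the genes that passed, and neither belongs to these lists. Rps23 is a ribosomal protein gene, a kind with near-identical copies that can share reads. Whether this touched its value was not tested.

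Of 11 library measures, 0 passed adjustment (exact permutation, smallest adjusted p = 0.186), and 3 had an unadjusted p near or under 0.05. Summed smooth muscle and pericyte markers were at 248 ± 8.67 normalised CPM in RSD and 264 ± 11.8 in CTR (SD, n = 6 each; exact permutation p = 0.0238). Fibroblast markers were at 1002 ± 29.1 normalised CPM in RSD and 1126 ± 115 in CTR (exact permutation p = 0.0368), and the mitochondrial row is given above. The part of these sums in the members' values was not tested, and Acta2 is itself on the smooth muscle list. Endothelial markers summed to 289 ± 22.6 normalised CPM in RSD and 263 ± 23.2 in CTR (SD, n = 6 each). Erythroid markers summed to 11288 ± 8923 in RSD and 6840 ± 3806 in CTR (SD, n = 6 each). Macrophage markers summed to 127 ± 12.04 in RSD and 142 ± 41.9 in CTR (SD, n = 6 each). CTR 24 held the highest macrophage sum of the controls, 222.9 normalised CPM, and the CTR mean was 125.8 without it. CTR 24 was also the highest control for 6 members, and any link was not tested. Atrial markers summed to 145.4 to 543 normalised CPM in RSD and 169.4 to 324 in CTR, with Bmp10 at 0. RSD 38 held the highest atrial sum, and the RSD mean of 315 normalised CPM was 269 without it. RSD 38 was also the highest RSD library for Ankrd23 and the lowest for Fhl2, and any link was not tested.

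**Figure D5:**
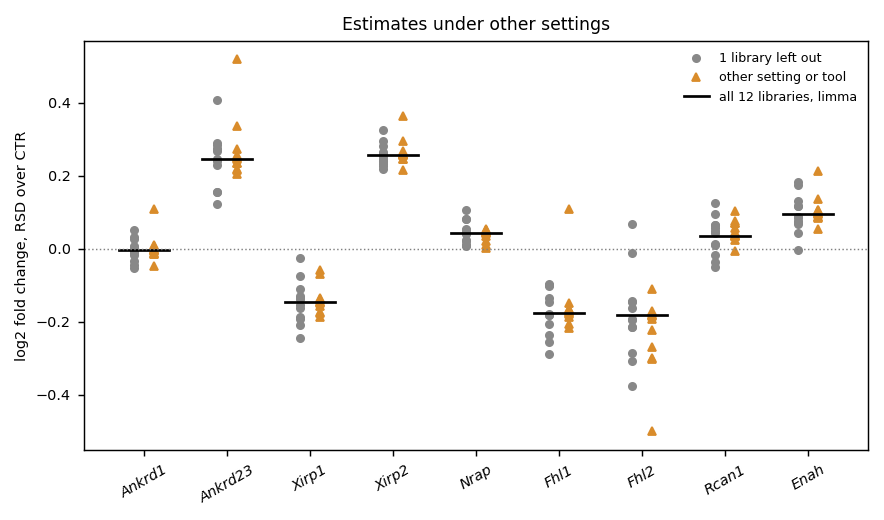
Log2 fold change of each gene (vertical axis, RSD over CTR) with all 12 libraries in limma (black line), with 1 library left out (grey circles) and under another scaling, filter, tool, pseudocount, covariate or with CTR 22 and RSD 33 both left out (orange triangles). All points for Xirp2 and Ankrd23 lie above 0 and all points for Xirp1 below it, while those for Ankrd1, Fhl1, Fhl2, Rcan1 and Enah fall on both sides.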

How the data were processed

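Messenger RNA was measured in 12 rat left ventricle libraries, grouped by their labels (6 RSD, 6 CTR). Per the labels' protocols, 3' end libraries came from 100 ng of total RNA. The authors deposited 1 table of 32735 gene rows in CPM, counts scaled to each library's total. Per the submitters' processing notes, bcl2fastq, STAR 2.6.0a, HTSeq 0.9.1, DESeq2 and rn6 were used, with no roles stated; the strand setting and annotation release were not given in the sources used here.

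Low values (up to 200 steps) were whole multiples of 1 step within 0.1 read in 100% of cases, so whole reads were recovered. The planned main test was limma with a variance trend on log2(CPM + 1), the CPM first divided by TMM factors, and Benjamini-Hochberg adjustment over 7511 genes kept by filterByExpr (minimum count 10). edgeR and DESeq2 on the recovered reads were alternatives; each called 2 genes. The software was limma 3.58.1, edgeR 4.0.16 and DESeq2 1.42.0 in R 4.3.3. limma was also run on simulated data with known changes. The outcome is not reported here, so the power to call small changes with 6 libraries per group is not stated. Library measures and ratios used two-sided exact permutation (924 splits), correlations 100000 two-sided permutations within groups.

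The members, gene lists and tests were chosen with earlier results of these data known. Named were all members, up to 3 genes of the smallest p per pathway list, the 3 genes most like each member and all genes called. Mef2a, Mef2c, Tead1, Ppp3ca, Csrp3, Acta1, Vasp, Evl and genes at 0 reads were chosen after their values were seen. So were Mef2d, Nppa and, in the list of stretch and hypertrophy genes, Myh7. Marker lists are given as sums, and skeletal muscle markers also by their reads. One gene that the rule names for Ankrd23 is not reported here; no library was left out. Levels were not tested between genes, and the marker lists whose sums are set side by side differ in length. Depth limits genes of few reads; intervals cover spread between rats, and counting error assumes independent reads, as no molecular identifiers were used.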

Additional observations from a re-analysis of the deposited data

Results flagged for a closer look

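In 24 combinations of a group with a member or ratio, 5 had 1 library far from the other 5 of its group. Its distance from the closest library, divided by the whole range of that group, was 0.706 for Ankrd23 in RSD 38 (highest in RSD), 0.662 for Ankrd23 in CTR 24 and 0.663 for Fhl2 in CTR 24 (both highest in CTR). It was 0.634 for Xirp2 in RSD 33 (lowest in RSD) and 0.664 for the log2 ratio of Ankrd1 to Ankrd23 in RSD 38 (lowest in RSD). The ratio shares its Ankrd23 value with the first of these, so they are not separate observations. Distances for genes were taken on normalised CPM, not on the log2 scale of the tests, and were not taken again on that scale. Chance was set to give 1.2 such combinations, but for these reasons whether 5 exceeds it cannot be decided.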

How the results depend on the processing

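No paired analysis was possible because the groups share no replicate numbers. Of the members, 0 passed under 23 of 24 alternatives, and 1 (Xirp2) did without CTR 22 and RSD 33 together. List genes that passed numbered 0 throughout, as did member pairs past adjustment in the 13 alternatives for correlations. Genes called over all genes numbered 2; they were 0 with no filter and with the mitochondrial covariate, 1 with at least 50 reads in 6 libraries, 3 by limma-voom with quality weights, 37 without CTR 22 and RSD 33, and 0 to 41 with 1 library left out. They were 41 without CTR 22, 1 without RSD 35, RSD 38, CTR 25 or CTR 26, and 0 without RSD 34, RSD 40, CTR 23, CTR 24 or CTR 27. Library measures past adjustment were 0 to 1 with 1 library left out; the 1 was the skeletal muscle sum without CTR 25 (7.58 normalised CPM in RSD, 4.21 in CTR, exact permutation adjusted p = 0.0476).

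Signs held in every alternative for Xirp2, Ankrd23, Xirp1 and Nrap. Ankrd1 was 0.00657 with at least 50 reads in 6 libraries, 0.0101 by limma-voom, 0.11 with the mitochondrial covariate, and -0.0541 to 0.0507 with 1 library left out. Fhl1 was 0.11 with the mitochondrial covariate. With 1 library left out, Fhl2 ran from -0.38 to 0.0682, Rcan1 from -0.0505 to 0.13 (and -0.00669 on CPM as deposited) and Enah from -0.00285 to 0.18. The Xirp1 to Xirp2 difference ran from -0.51 to -0.25, and the Fhl1 to Fhl2 difference from -0.22 to 0.21. The cause of these shifts was not tested. Genes with few reads, such as Xirp1 (48 to 149 per library), carry more counting error, and its part in these shifts was not tested.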
